A study of Homo sapiens with 21 samples.

Results

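The transcripts of 8 Siglec receptors of myeloid cells were followed across THP1 cells with IRF2BP2, JDP2 or ATF7 targeted. THP1 is a human line of monocytic character from an acute myeloid leukemia. The 8 genes are CD33, SIGLEC1, SIGLEC5, SIGLEC6, SIGLEC7, SIGLEC9, SIGLEC10 and SIGLEC11, taken by symbol from a table of 20423 genes, and all 8 were found there. IRF2BP2 is a transcriptional cofactor, and JDP2 and ATF7 are basic leucine zipper factors. IRF2BP2 was knocked down with 2 hairpins carried in the pLKO.1 vector, shRNA 2 and shRNA 1, with 3 libraries each. JDP2 and ATF7 were knocked out with Lenti-CRISPRv2 constructs, and each knockout is represented by 2 clones grown from single cells, with 2 libraries each. The references were 2 libraries of an shRNA control, 1 wild-type library and 2 libraries of a knockout control. The labels do not say whether libraries of a group came from separate cultures, so the p-values below reflect only how far these libraries scatter, possibly for technical reasons. With 2 clones per knockout, a difference from the control may belong to the clones.

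Siglecs are lectins of the immunoglobulin superfamily that bind sialic acids on cell surfaces. CD33 and its relatives SIGLEC5, SIGLEC6, SIGLEC7, SIGLEC9, SIGLEC10 and SIGLEC11 carry tyrosine motifs in their tails that recruit the phosphatases SHP-1 and SHP-2 (PTPN6 and PTPN11) and dampen cell activation. SIGLEC1, the macrophage adhesion receptor sialoadhesin, lacks such motifs, while SIGLEC14 and SIGLEC16 are activating counterparts of SIGLEC5 and SIGLEC11 that signal through the adaptor TYROBP. CD33 is widely used as a surface marker and antibody target in acute myeloid leukemia.

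Depth was 28.7 to 60.2 M (mega) reads in genes per library. Of the monocytic markers, LYZ (lysozyme) had 12307 to 106648 normalized counts, whereas CD14 stayed between 2.16 and 157. Transcripts defining other cell types were near 0, with the T cell gene CD3D at 0 in 15 of 19 libraries and MS4A1 of B cells at 0 in 15 of 19, but the mast cell tryptase gene TPSAB1 (2966 to 19846) and NKG7 of natural killer cells (5161 to 29304) were abundant in every library. The libraries that stood apart, with 25.6 to 48.5 percent of genes over 2-fold away from the median library, were the 3 labelled IRF2BP2 shRNA 2 replicate 3, IRF2BP2 shRNA 1 replicate 3 and JDP2 knockout clone 1 replicate 2. IRF2BP2 itself had 12587, 16649 and 25650.5 normalized counts with shRNA 2 and 9456, 11109.7 and 9802 with shRNA 1, against 16973 and 18382 in shRNA control. The library labelled IRF2BP2 shRNA 2 replicate 3 thus held more IRF2BP2 message than either control and went against its label. Replicate 2 of this hairpin, at 16649, was below both shRNA controls but within the 14859 to 21364 of the knockout control. JDP2 and ATF7 messages were not lower than the knockout control in every library of their own knockouts, and an edit that shifts the reading frame need not lower a transcript, so these levels do not check the knockouts.

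At baseline the 8 receptors fell into an abundant and a rare set. Per kilobase of exon, which allows genes to be compared, the mean over the 5 control libraries was 1080.4 ± 228 normalized counts for SIGLEC6, 484 ± 129 for SIGLEC7, 394 ± 94.8 for SIGLEC5, 278 ± 40.1 for SIGLEC10 and 233 ± 29.2 for CD33 (SD, n = 5). SIGLEC1 stood at 7.44 ± 4.25, SIGLEC9 at 5.95 ± 6.92 and SIGLEC11 at 1.39 ± 0.649 normalized counts per kilobase (SD, n = 5). The lowest library of the abundant set, CD33 at 212 per kilobase, lay above the highest of the rare set, SIGLEC9 at 16.7 per kilobase. SIGLEC12, a Siglec outside the set of 8, was higher than all of them at 1621 ± 362 per kilobase (SD, n = 5). SIGLEC6, best known from mast cells, B cells and placenta, was the highest of the 8. The divisor was the length of all annotated exons, which is 5.98 kb for CD33 and 2.04 to 3.67 kb for the other 4 abundant receptors, and the expressed isoforms may be shorter. The place of the leukemia marker CD33 in this order therefore depends on that length, and its range per kilobase overlapped that of SIGLEC10.

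**Figure D1:**
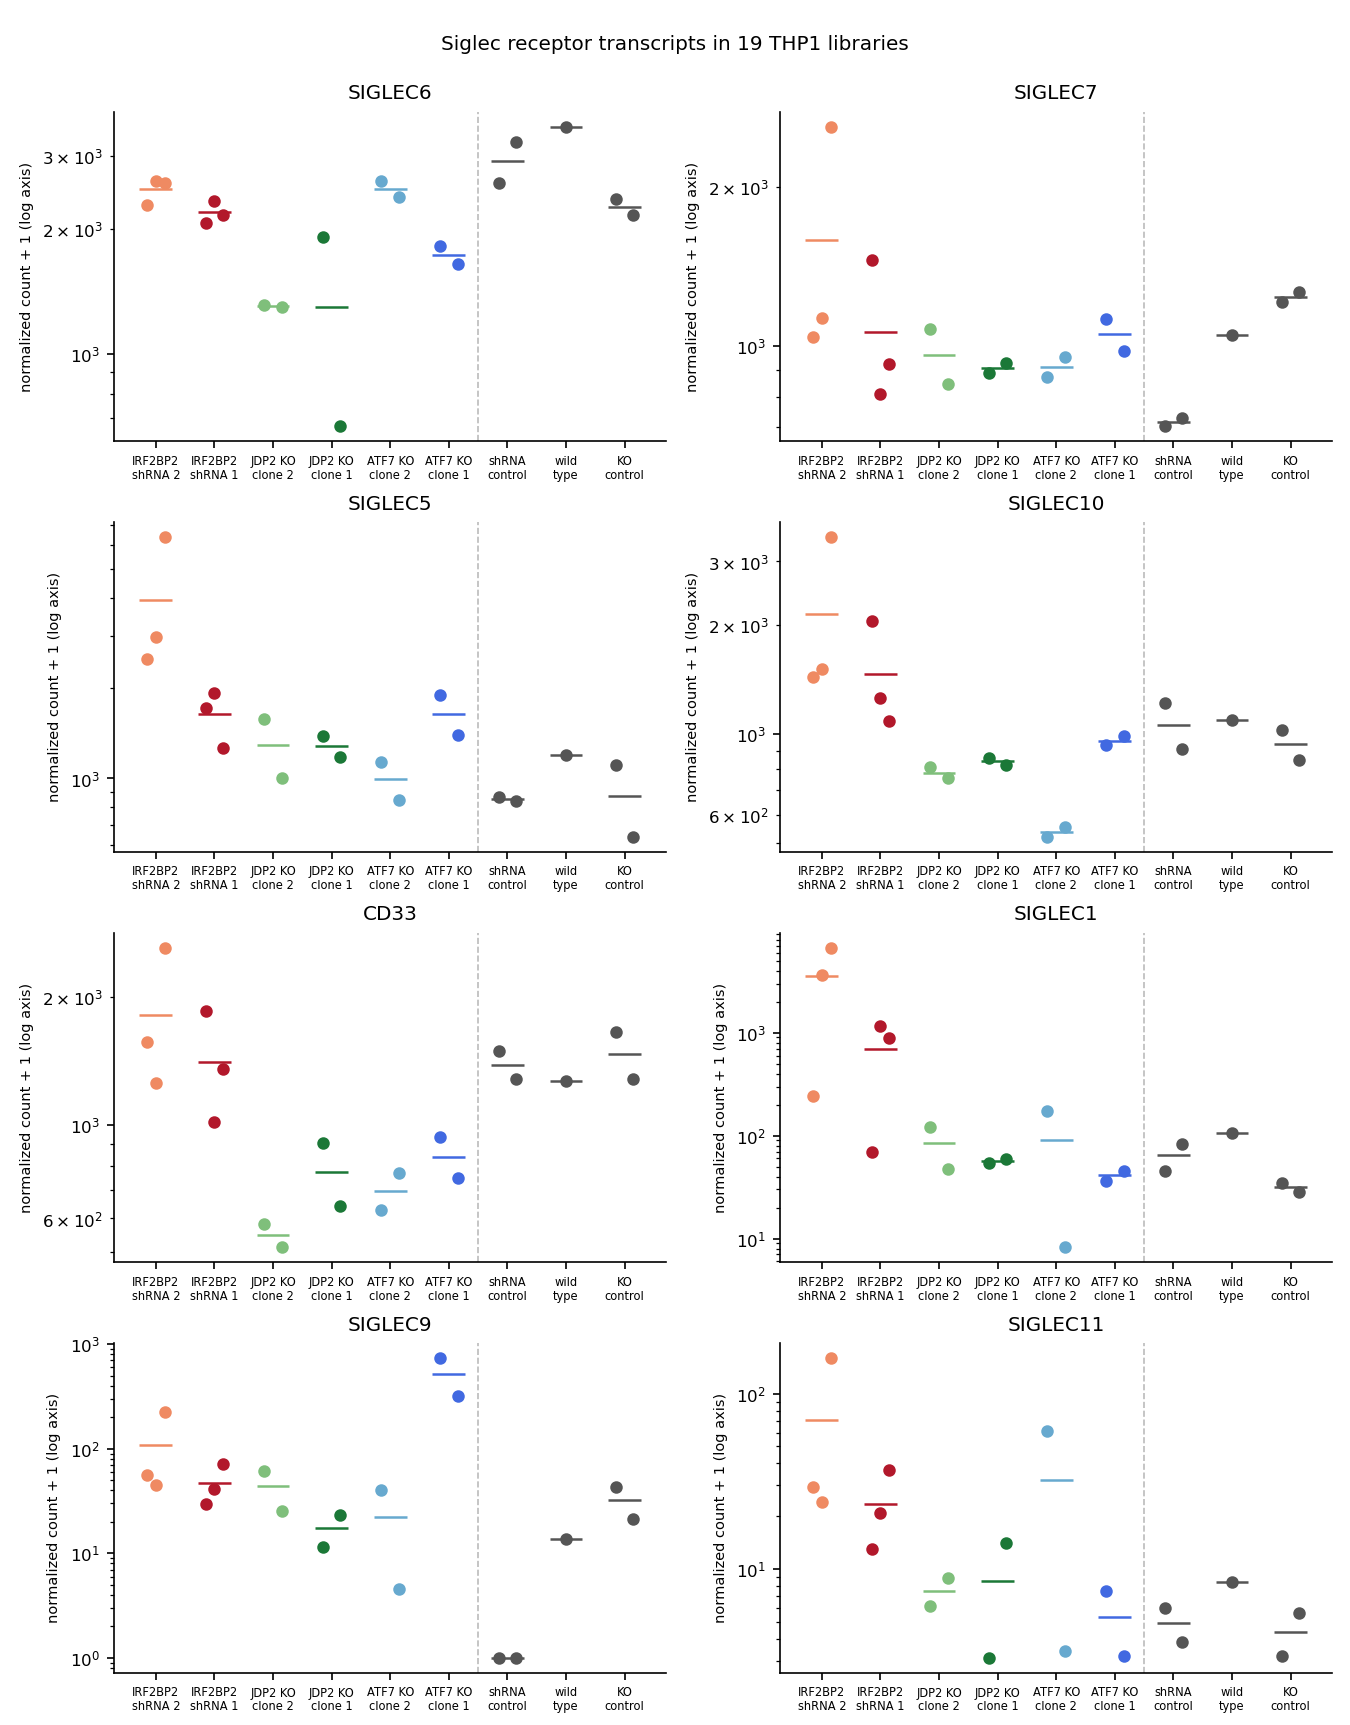
Normalized counts plus 1 (log axis) of each receptor in every library, 1 point per library, with the group mean as a line; knockdown and knockout groups stand left of the dashed line and the 3 control groups right of it, and the vertical range differs between panels. SIGLEC1 reaches 6663 in the library labelled IRF2BP2 shRNA 2 replicate 3 against at most 105 in controls, and all 8 knockout libraries lie below all 5 controls for CD33.

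Part of the reads of these genes cannot be assigned to 1 gene with certainty. Of the 50-base windows along the annotated transcripts of SIGLEC5, 82.2 percent also occur in another gene, chiefly in AC018755.2, a gene model whose exons overlap both SIGLEC5 and SIGLEC14. SIGLEC11 shares 38.5 percent of its windows, of which the largest part, 24.9 percent, is with SIGLEC16, and SIGLEC10 shares 8.43 percent. For CD33, SIGLEC6, SIGLEC7 and SIGLEC9 the share was at most 1.04 percent, and for SIGLEC1 it was 0. Exons of SIGLEC6, SIGLEC7 and SIGLEC10 overlap genes on the opposite strand, and no source used here states how strand was counted, so reads of those partners cannot be told apart.

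In GENCODE release 29 (GRCh38), SIGLEC1 is a minus-strand gene of chromosome 20 (3686970 to 3707128), and the other 7 are on chromosome 19. SIGLEC11 (49948985 to 49961172, minus strand) is the outermost of these on one side. SIGLEC9 (51124908 to 51136651), SIGLEC7 (51142299 to 51153526) and CD33 (51225064 to 51243860) follow on the plus strand. SIGLEC10 (51410021 to 51417803), SIGLEC6 (51519525 to 51531856) and SIGLEC5 (51611927 to 51645545) lie beyond them on the minus strand. Promoter windows of 300 bases (250 before and 50 after the start of a transcript), from RefSeq on GRCh38.p14, were found for 7 of the 8 genes in 8 windows, and SIGLEC1 had none. The windows were searched on both strands for the AP-1 motif TGANTCA and the CRE motif TGACGTCA, the kinds of site that JDP2 and ATF7 bind, for the ETS motif GAGGAA and for the IRF motif AANNGAAA. AP-1 letters occurred in 1 of 8 windows (7.71 percent of all 35116 windows), CRE letters in 0 (1.85 percent), ETS letters in 5 (27.9 percent) and IRF letters in 0 (22.8 percent). The windows with ETS letters include both windows of SIGLEC9 (starts 51124630 and 51124656), which overlap and share a match, so they are not separate. The windows below are those of SIGLEC9, the receptor that passed the test in the knockdown, SIGLEC11, the holder of the AP-1 match, and CD33, the receptor that was low in every knockout library. Capitals mark GAGGAA or its reverse complement in SIGLEC9 and CD33, and the AP-1 match in SIGLEC11.
SIGLEC9 (chr19:51124656-51124955, plus strand): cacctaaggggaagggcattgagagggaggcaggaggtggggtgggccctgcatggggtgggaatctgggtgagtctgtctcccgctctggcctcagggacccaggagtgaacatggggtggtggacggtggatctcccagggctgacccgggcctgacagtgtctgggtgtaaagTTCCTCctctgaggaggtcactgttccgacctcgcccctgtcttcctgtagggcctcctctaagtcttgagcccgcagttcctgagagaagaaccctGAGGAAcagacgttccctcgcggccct
SIGLEC11 (chr19:49961123-49961422, minus strand): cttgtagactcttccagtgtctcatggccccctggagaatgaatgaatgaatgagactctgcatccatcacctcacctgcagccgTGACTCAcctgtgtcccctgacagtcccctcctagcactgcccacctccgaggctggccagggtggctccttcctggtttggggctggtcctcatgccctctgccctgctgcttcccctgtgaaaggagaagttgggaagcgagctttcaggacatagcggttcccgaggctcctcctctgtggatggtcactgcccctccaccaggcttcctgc
CD33 (chr19:51224830-51225129, plus strand): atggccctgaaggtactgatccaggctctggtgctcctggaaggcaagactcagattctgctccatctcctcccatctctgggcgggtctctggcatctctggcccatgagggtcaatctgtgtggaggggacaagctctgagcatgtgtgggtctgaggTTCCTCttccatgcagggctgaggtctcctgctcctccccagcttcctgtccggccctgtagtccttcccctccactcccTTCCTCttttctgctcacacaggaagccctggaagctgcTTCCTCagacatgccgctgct
A match describes letters in the window and is not a site of binding.

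SIGLEC9 was the receptor called as higher in IRF2BP2 knockdown against shRNA control, and several others were higher without passing the test. The test was limma on log2(normalized count + 1) with Benjamini-Hochberg adjustment over all genes tested, and a gene was called at an adjusted p under 0.05. This scale understates the change of low genes. It called 1 of the 8 receptors, higher, where 1.79 percent of 12738 genes were called. The median log2 change of the 8 was 1.14, against -0.03 over all genes tested. All 8 passed the filter of a mean of 10 normalized counts over the libraries of the fit, but SIGLEC9 and SIGLEC11 passed it only through the knockdown libraries, so the counts over the 8 and the tests of these 2 carry that selection. With no filter on low values, SIGLEC9 had a limma adjusted p of 0.00379.

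SIGLEC9, an inhibitory receptor of monocytes and neutrophils, had 55.0, 44.3 and 226 normalized counts with shRNA 2 and 28.4, 40.5 and 70.4 with shRNA 1, against 0 and 0 in shRNA control. No library of the knockdown overlapped its control, but the share of all genes without overlap against shRNA control alone was not computed. The control libraries held 0 reads of SIGLEC9, and with 3 reads per library as the floor the knockdown mean of 77.4 was at least 26.7-fold higher. That mean includes the 226 of IRF2BP2 shRNA 2 replicate 3, and the bound without this library was not computed. The log2 change was 5.92 ± 0.72 (SE; limma adjusted p = 0.00326, higher in 6 of 6 libraries). Without the library labelled IRF2BP2 shRNA 2 replicate 3 it was 5.54 ± 0.58 (limma adjusted p = 0.00232). The other control libraries did hold the transcript, however, with 12.7 in wild type and 42.4 and 20.4 in the knockout control. Knockdown values as low as 28.4 overlapped those of the knockout control. Against all 5 controls the log2 change was 3.20 ± 0.92 (SE; limma adjusted p = 0.0344). The authors' deposited table, which sets the knockdown against controls, gives SIGLEC9 a log2 change of 0.72 with an adjusted p of 0.300. Direction and call in limma held with either reference, and the size was smaller once the 3 further control libraries entered.

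SIGLEC1, the sialoadhesin gene, had 244, 3674 and 6663 normalized counts with shRNA 2 and 68.8, 1150.3 and 880.2 with shRNA 1, against 44.8 and 82.5 in shRNA control, 105 in wild type and 33.7 and 27.6 in the knockout control. Of the 6 knockdown libraries, 5 lay above all 5 controls, and shRNA 1 replicate 1 lay within their range. The log2 change against shRNA control was 3.81 ± 1.29 (SE; limma adjusted p = 0.190), which missed the threshold. Against all 5 controls it was 4.04 ± 0.90 (SE; limma adjusted p = 0.00931). The transcript is known to be induced by type I interferon in monocytes.

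SIGLEC5, an inhibitory receptor of myeloid cells, had 2508, 2959 and 6385 normalized counts with shRNA 2 and 1719.8, 1935 and 1259.6 with shRNA 1, against 866 and 839 in shRNA control. Wild type had 1197 and the knockout control had 1106 and 637. Every knockdown library was above every control. The log2 change was 1.50 ± 0.49 against shRNA control (SE; limma adjusted p = 0.170) and 1.41 ± 0.34 against all 5 controls (limma adjusted p = 0.0138). SIGLEC14, its activating counterpart, had a log2 change of 1.22 ± 0.35 against shRNA control (limma adjusted p = 0.126), with means of 1549 and 641 normalized counts (n = 6 and 2). Across the 19 libraries, SIGLEC5 and SIGLEC14 had a Pearson r of 0.81 on log2 values, a description of libraries that share groups and of genes that share sequence.

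SIGLEC11, a receptor known from microglia and other tissue macrophages, was scarce throughout. It had 28.4, 23.2 and 158 normalized counts with shRNA 2 and 11.9, 19.9 and 35.9 with shRNA 1, against 4.98 and 2.81 in shRNA control, 7.42 in wild type and 2.17 and 4.61 in the knockout control. These control values rest on 2 to 7 reads per library, yet no knockdown library fell among them. The log2 change was 2.76 ± 0.82 against shRNA control (SE; limma adjusted p = 0.136) and 2.66 ± 0.58 against all 5 controls (limma adjusted p = 0.00869). SIGLEC16, which shares sequence with SIGLEC11, ran from 22.7 to 218 normalized counts in the knockdown, against 7.61 to 20.4 in the 5 controls.

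**Figure D2:**
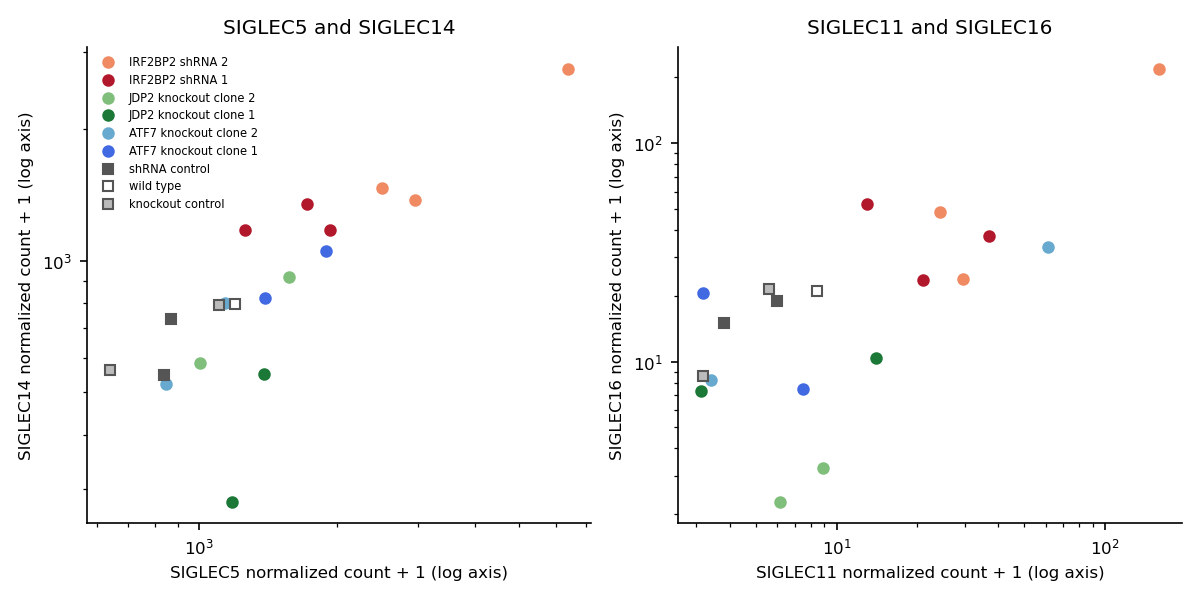
Normalized counts plus 1 (log axes) of SIGLEC5 against SIGLEC14 and of SIGLEC11 against SIGLEC16, 1 point per library, circles for knockdown and knockout groups and squares for controls. Knockdown libraries lie above and to the right of the controls in both pairs, with the library labelled IRF2BP2 shRNA 2 replicate 3 at the top right at 6385 counts of SIGLEC5 and 158 of SIGLEC11.

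The abundant inhibitory receptors CD33, SIGLEC6, SIGLEC7 and SIGLEC10 did not pass the test in the knockdown with either reference. CD33 ranged from 1013 to 2615 normalized counts (median 1459), against 1489.8 and 1277 in shRNA control, with a log2 change of 0.15 ± 0.36 (SE; limma adjusted p = 0.884). SIGLEC10, which binds the glycoproteins CD24 and CD52, averaged 1807 ± 889 in the knockdown and 1063 ± 219.9 in shRNA control (SD, n = 6 and 2), a log2 change of 0.66 ± 0.41 (SE; limma adjusted p = 0.517). The authors' deposited table calls SIGLEC10 at a log2 change of 0.77. SIGLEC7, known from natural killer cells and monocytes, averaged 1324 ± 662 in the knockdown and 715 ± 18.7 in shRNA control (SD, n = 6 and 2), with a log2 change of 0.77 ± 0.40 (SE; limma adjusted p = 0.428). SIGLEC6 was the one receptor with a negative value, -0.31 ± 0.27 (SE; limma adjusted p = 0.669), and its 6 knockdown libraries spanned only 2073 to 2612.

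With all 5 control libraries as the reference, limma called SIGLEC1, SIGLEC5, SIGLEC9 and SIGLEC11, all higher, among the 8, where 12.3 percent of 12679 genes were called. The authors' deposited table, at the same threshold, calls SIGLEC1, SIGLEC5, SIGLEC10 and SIGLEC11, where it calls 17.5 percent of its genes. Every knockdown library lay above every one of the 5 controls for 2 of the 8 receptors, SIGLEC5 and SIGLEC11, and for 6.06 percent of all genes measured. Genes entered this count by a filter on their mean over all 19 libraries. SIGLEC11 averaged 46.2 normalized counts in the knockdown, 12.4 in both knockouts and 4.40 in the 5 controls. Its entry thus leaned on the libraries in which it was then scored as higher, and its place among the 2 carries that selection. The library labelled IRF2BP2 shRNA 2 replicate 3 was the highest of all 19 for CD33, SIGLEC1, SIGLEC5, SIGLEC7, SIGLEC10 and SIGLEC11. Its part in the pooled change is shown by the values without it, which were 3.22 for SIGLEC1, 1.22 for SIGLEC5, 2.30 for SIGLEC11, 0.55 for SIGLEC7, 0.45 for SIGLEC10 and -0.00031 for CD33 on the log2 scale against shRNA control.

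**Figure D3:**
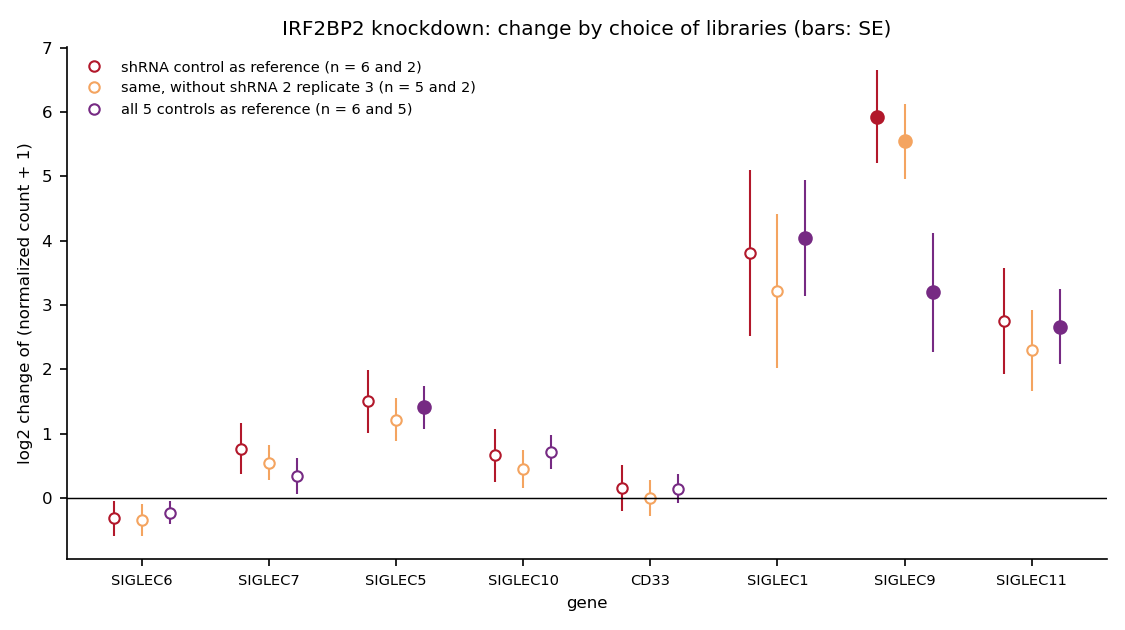
Log2 change of normalized count plus 1 in IRF2BP2 knockdown for each receptor with 3 choices of libraries; bars are SE, and filled points have a limma adjusted p under 0.05. SIGLEC9 is filled throughout but drops to 3.20 with all 5 controls, while SIGLEC1, SIGLEC5 and SIGLEC11 keep their size and are filled only with all 5 controls.

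The hairpins were then compared with each other. No receptor was called between shRNA 2 and shRNA 1, where 0 percent of 12738 genes were called by limma, with 917 genes at an unadjusted p under 0.05. SIGLEC5 had the lowest p of the 8 receptors, at 3951 ± 2120 normalized counts with shRNA 2 and 1638 ± 345 with shRNA 1 (SD, n = 3 each). Its hairpins did not overlap, but the share of all genes without such overlap was not computed. Its log2 difference was 1.17 ± 0.37 (SE; limma unadjusted p = 0.00871, adjusted p = 0.589). SIGLEC1 averaged 3527 ± 3212 with shRNA 2 and 699.8 ± 563 with shRNA 1 (SD, n = 3 each), and these ranges overlapped.

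In JDP2 knockout, CD33 and SIGLEC6 were the receptors with the lowest values relative to controls, and neither passed the test against the knockout control. Limma called 0 of the 8 receptors, where 0.674 percent of 13208 genes were called. An unadjusted p under 0.05 was reached by 2 of the 8 and by 16.8 percent of all genes tested. The median log2 change of the 8 was -0.23, against 0.00 over all genes tested. SIGLEC11 entered this fit only through 1 ATF7 knockout library with 60.2 normalized counts.

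CD33 had 582 and 512 normalized counts in JDP2 clone 2 and 904 and 639.6 in JDP2 clone 1, against 1658 and 1282 in the knockout control. All 4 JDP2 libraries were lower than both controls. The log2 change was -1.18 ± 0.28 (SE; limma adjusted p = 0.0957). Against all 5 controls, which spanned 1267 to 1658, it fell by 1.10 ± 0.19 on the log2 scale (SE; limma adjusted p = 0.00979), and the authors' deposited table also has it lower, with an adjusted p of 0.00181. SIGLEC6 had 1307 and 1292 normalized counts in JDP2 clone 2 and 1919 and 666 in JDP2 clone 1, against 2362 and 2166 in the knockout control. Again the groups did not overlap, but the share of all genes without overlap against the knockout control alone was not computed. The log2 change was -0.90 ± 0.37 (SE; limma adjusted p = 0.260), and without JDP2 clone 1 replicate 2, which stood apart, it was -0.61 ± 0.27 (limma adjusted p = 0.334). Against all 5 controls, at 2166 to 3536, SIGLEC6 fell by 1.17 ± 0.27 (SE; limma adjusted p = 0.0257), and the authors' deposited table gives -1.02 with an adjusted p of 0.00118.

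With all 5 controls, limma called CD33 and SIGLEC6 in JDP2 knockout, both lower, where 7.08 percent of 12986 genes were called. The authors' deposited table calls the same 2 receptors, where it calls 12.1 percent of its genes. Every JDP2 library lay below every one of the 5 controls for 2 of the 8 receptors, CD33 and SIGLEC6, and for 6.19 percent of all genes measured. The remaining receptors did not pass the test with either reference, apart from SIGLEC11, which was not tested with all 5 controls and did not pass against the knockout control. SIGLEC7 averaged 933 ± 99.5 normalized counts in JDP2 knockout and 1235 ± 40.3 in the knockout control (SD, n = 4 and 2), a log2 change of -0.41 ± 0.22 (SE; limma adjusted p = 0.367). SIGLEC5 averaged 1285 ± 247 in JDP2 knockout and 872 ± 332 in the knockout control (SD, n = 4 and 2). SIGLEC9 ranged from 10.5 to 60.8 in JDP2 knockout, against 42.4 and 20.4 in the knockout control.

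In ATF7 knockout, CD33 was low as well, and SIGLEC9 was high in 1 of the clones. Limma called 0 of the 8 receptors against the knockout control, where 0.25 percent of 13208 genes were called. An unadjusted p under 0.05 was reached by 1 of the 8 and by 7.09 percent of all genes tested. CD33 had 627 and 767 normalized counts in ATF7 clone 2 and 934 and 745 in ATF7 clone 1, against 1658 and 1282 in the knockout control. The log2 change was -0.94 ± 0.28 (SE; limma adjusted p = 0.308, lower in 4 of 4 libraries) and, against all 5 controls, -0.87 ± 0.19 (limma adjusted p = 0.154). The authors' deposited table gives CD33 -0.80 with an adjusted p of 0.0984. JDP2 and ATF7 knockouts share their control libraries, so their CD33 values are not independent. With all 5 controls, limma called 0 of the 7 receptors tested, where 0.0231 percent of 12986 genes were called, and the authors' deposited table calls 0 of 8, where it calls 0.315 percent. Every ATF7 library lay below all 5 controls for 1 of the 8 receptors, CD33, and for 2.54 percent of all genes measured.

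**Figure D4:**
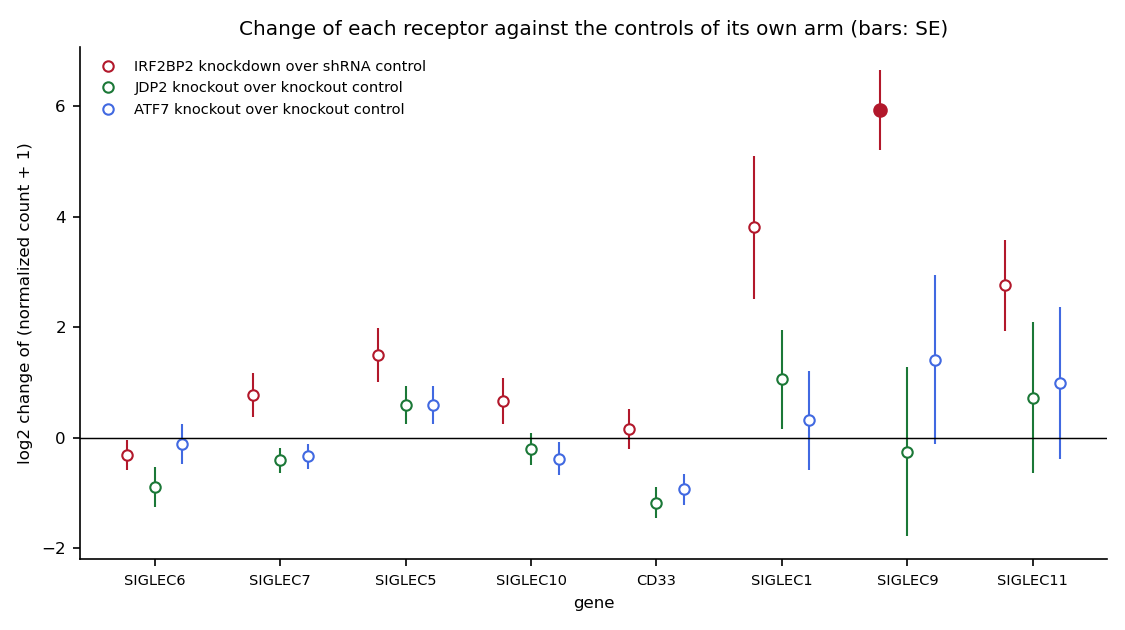
Log2 change of normalized count plus 1 for each receptor against the control of its own arm, with SE bars; red is IRF2BP2 knockdown, green JDP2 knockout and blue ATF7 knockout, and filled points have a limma adjusted p under 0.05. SIGLEC9 in the knockdown, at 5.92, is the filled point, and CD33 lies at -1.18 and -0.94 in the JDP2 and ATF7 knockouts against 0.15 in the knockdown.

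SIGLEC9 set the ATF7 clones apart. It had 39.3 and 3.60 normalized counts in ATF7 clone 2, against 729.8 and 316 in ATF7 clone 1, the highest values of this gene among the 19 libraries. The log2 difference of clone 2 over clone 1 was -5.14 ± 0.98 (SE; limma adjusted p = 0.0751), which missed the threshold, and limma called 0 of the 8 receptors where 0.303 percent of 13208 genes were called. It passed under several of the alternatives given in the closing section, including without the 3 libraries far from the median. The clones of ATF7 were pooled in the comparison with the knockout control, where SIGLEC9 accordingly had a log2 change of 1.41 ± 1.53 (SE; limma adjusted p = 0.866). SIGLEC10 had 519.5 and 553 normalized counts in clone 2, against 931 and 985 in clone 1, a log2 difference of -0.84 ± 0.27 (SE; limma adjusted p = 0.403). The monocytic marker CD68 also differed between these clones, with a log2 difference of -2.08 ± 0.30 (SE; limma adjusted p = 0.0198) and means of 625 in clone 2 and 2585 in clone 1 (n = 2 each). The CD68 call was lost without any 1 of 7 libraries, among them both of clone 1 (limma adjusted p = 0.0567 to 0.291), and its part in the SIGLEC9 difference was not tested.

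The JDP2 clones differed less clearly in these genes. Limma called 0 of the 8 receptors between JDP2 clone 2 and clone 1, where 0.136 percent of 13208 genes were called. An unadjusted p under 0.05 was reached by 0 of the 8 and by 2.48 percent of all genes tested. CD33 averaged 547 ± 49.6 in clone 2 and 772 ± 187 in clone 1 (SD, n = 2 each), without overlap. The clones also did not overlap for SIGLEC9, with means of 42.7 and 16.5, and SIGLEC10, with means of 782 and 840. The share of all genes without overlap between these clones was not computed. Between JDP2 and ATF7 knockouts limma called 0 receptors, where 0 percent of 13208 genes were called and 289 genes had an unadjusted p under 0.05. SIGLEC6 had the lowest p of the 8 there, at 1296 ± 512 in JDP2 knockout and 2119 ± 460 in ATF7 knockout (SD, n = 4 each), a log2 difference of -0.78 ± 0.30 (SE; limma unadjusted p = 0.0224, adjusted p = 0.999).

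Whether the knockdown acted differently from the knockouts was tested as a difference of effects, each effect taken against the control of its own arm. Limma called 0 of the 8 receptors for the knockdown effect minus the JDP2 knockout effect, where 1.76 percent of 13057 genes were called. SIGLEC9 came closest, with a difference of 6.18 ± 1.80 (SE; limma adjusted p = 0.0762), followed by CD33 at 1.33 ± 0.45 (limma adjusted p = 0.123) and SIGLEC7 at 1.18 ± 0.47 (limma adjusted p = 0.176) on the log2 scale. SIGLEC7 was above its control in 6 of 6 knockdown libraries and below its control in 4 of 4 libraries of each knockout, but the 2 controls themselves differed, at 702 and 728 in shRNA control and 1206 and 1263 in the knockout control. How many of all genes have that pattern was not computed. For the knockdown effect minus the ATF7 knockout effect limma called 0 of the 8, where 0.337 percent of 13057 genes were called. The differences there were 4.51 ± 1.80 for SIGLEC9 (SE; limma adjusted p = 0.290) and 1.09 ± 0.45 for CD33 (limma adjusted p = 0.317).

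Ordered by group mean, shRNA 2 was the highest of the 9 groups for CD33, SIGLEC1, SIGLEC5, SIGLEC7, SIGLEC10 and SIGLEC11. For SIGLEC5 its lowest library, at 2508, was above every library of the next group, ATF7 clone 1, whereas for the other 5 the range of shRNA 2 overlapped that of the next group. For CD33, SIGLEC7 and SIGLEC11 the first place rested on shRNA 2 replicate 3. The other shRNA 2 libraries had 1563 and 1253 for CD33, against 1658 and 1282 in the knockout control. For SIGLEC7 they had 1035 and 1129, against 1206 and 1263 there. For SIGLEC11 they had 28.4 and 23.2, against a mean of 31.3 in ATF7 clone 2, whose libraries had 60.2 and 2.40. SIGLEC9 was highest in ATF7 clone 1, apart from the next group, shRNA 2. SIGLEC6 was highest in the single wild-type library and lowest in both JDP2 clones, which overlapped. At the low end, CD33 was lowest in JDP2 clone 2, SIGLEC10 in ATF7 clone 2, and SIGLEC5, SIGLEC7 and SIGLEC9 in shRNA control. SIGLEC1 and SIGLEC11 were lowest in the knockout control.

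Among 15 adaptors and signalling genes of these receptors tested in the knockdown, 2 rose and 0 fell, where 1.79 percent of all genes tested were called, with a median log2 change of 0.63 against -0.03 over all genes. TYROBP, the adaptor of activating Siglecs, had 3343, 7978 and 19098 normalized counts with shRNA 2 and 3542, 7221 and 3803 with shRNA 1, against 398 and 713 in shRNA control, and rose by 3.51 ± 0.59 on the log2 scale (SE; limma adjusted p = 0.00987). LYN, a kinase that phosphorylates Siglec tails, rose by 1.44 ± 0.33 (SE; limma adjusted p = 0.0493), with means of 5038 in the knockdown and 1806 in shRNA control (n = 6 and 2). Of the 15, LYN alone was called for a knockdown effect above the JDP2 knockout effect, by 1.99 ± 0.41 (SE; limma adjusted p = 0.0218, and 0.0764 to 0.182 without any 1 of the 4 control libraries). Without shRNA control replicate 1 or replicate 3 the TYROBP call was lost (limma adjusted p = 0.260 and 0.0563), as was that of LYN (0.592 and 0.322), which was also lost without any of 5 knockdown libraries (0.0608 to 0.114). Against the knockout control, 0 of the 15 were called in either knockout.

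Of 12 carriers of Siglec ligands tested in the knockdown, 1 rose and 0 fell, where the 1.79 percent of all genes called applies to this list and to those that follow. It was CD52, a ligand of SIGLEC10, which had 19.9 to 264 normalized counts in the knockdown against 0.995 and 2.81 in shRNA control, a log2 change of 4.17 ± 0.88 (SE; limma adjusted p = 0.0319). It too passed the filter only through the knockdown libraries, and with no filter on low values it was not called (limma adjusted p = 0.0524). Without shRNA control replicate 1 or replicate 3 its limma adjusted p was 0.448 and 0.143, and without any 1 of 3 knockdown libraries it was 0.0510 to 0.0673. Of 20 genes for the synthesis, transfer and removal of sialic acid, 0 were called, with a median log2 change of 0.10, and the most abundant were CTSA (log2 change 1.03 ± 0.54, SE; limma adjusted p = 0.430) and ST3GAL2 (0.93 ± 0.41, SE; limma adjusted p = 0.328). Of the 6 other Siglec genes tested, 0 were called in the knockdown, with a median log2 change of 1.15, and the most abundant of them, SIGLEC12, had a log2 change of 0.20 ± 0.44 (SE; limma adjusted p = 0.874). CD22 was called as higher in the difference between the knockdown and JDP2 knockout effects, at 2.73 ± 0.69 (SE; limma adjusted p = 0.0470), a call lost without any 1 of 16 libraries (limma adjusted p = 0.0503 to 0.307). The sialic acid, ligand and other Siglec lists had 0 calls in either knockout against its control.

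Genes between the outermost receptors on chromosome 19 were examined as neighbours. Of the 45 that are not Siglec genes, 23 were tested in the knockdown and 0 were called, where 1.79 percent of all genes were called, with a median log2 change of 0.03. In the JDP2 and ATF7 knockouts 24 were tested and 0 called, where 0.674 and 0.25 percent of all genes were called, with medians of 0.69 and 0.60. At such shares a list of this length may hold no call. The most abundant neighbour was CLEC11A, with means of 19412 in the knockdown and 23641 in shRNA control (n = 6 and 2).

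Some macrophage and monocyte markers were higher in the knockdown and others were not. The sum of the 8 macrophage maturation markers ranged from 561 to 2734 normalized counts in the knockdown (median 1292), against 198 to 782 in the 5 controls, so the ranges overlapped. MRC1 was at 0 in both shRNA control libraries and at 1.21 to 4.03 in 5 of the 6 knockdown libraries, and MSR1 was at 0 in all 3 shRNA 2 libraries. Of the 4 tested, CD86 rose by 5.16 ± 0.68 (SE; limma adjusted p = 0.00356) and CD163 by 3.99 ± 0.91 (SE; limma adjusted p = 0.0478), where 1.79 percent of all genes were called. CD163 passed the filter only through the knockdown libraries, and with no filter on low values it was not called (limma adjusted p = 0.0737). Of the 12 monocytic markers, ITGAM rose by 3.17 ± 0.46 (SE; limma adjusted p = 0.00533) and FCER1G by 3.22 ± 0.49 (SE; limma adjusted p = 0.00562), and 0 were called as lower. ELANE and AZU1, genes of azurophil granule proteins in immature myeloid cells, were nevertheless lower in all 6 knockdown libraries than in both shRNA controls. Neither was called, and how many of all genes were lower in this way was not computed. ELANE had 6126 to 45943 normalized counts in the knockdown against 91739.7 and 62173 in shRNA control, and AZU1 had 2827 to 18057 in the knockdown against 28633 and 35996 in shRNA control. Wild type was above these knockdown ranges, at 57246 for ELANE and 24010 for AZU1. The knockout control lay within them, at 27079 and 17262.5 for ELANE and 16175 and 11374 for AZU1. MPO of the same list was not lower, at 15.1 to 119 in the knockdown against 27.9 and 18.7 in shRNA control. Without shRNA control replicate 1 the limma adjusted p was 0.0648 for CD86, 0.646 for CD163, 0.131 for ITGAM and 0.151 for FCER1G. Without shRNA control replicate 3 it was 0.101 for CD163, 0.0503 for ITGAM and 0.0558 for FCER1G, and CD163 also missed the threshold without any 1 of 3 knockdown libraries (limma adjusted p = 0.0940 to 0.0944). The sum of the 12 monocytic markers overlapped, at 81916 to 245969 in the knockdown and 83302 to 200449 in the 5 controls. The part of these markers in the receptor levels was not tested, and in bulk samples more cells of a type and more RNA per cell cannot be told apart.

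The genes most like each receptor were found by Pearson r over the 19 libraries on log2 values, as a description of libraries that share groups and depth. SIGLEC5 was most like VSIR (r = 0.95), GPR132 (r = 0.94) and LAPTM5 (r = 0.93). SIGLEC1 was most like TMEM106A (r = 0.94), TRIM5 (r = 0.91) and SLCO2B1 (r = 0.90), and SLCO2B1 was also among the 3 genes most like SIGLEC11 (r = 0.89), after PLB1 and DOCK4. CD33 was most like RBM34 (r = 0.93), SIGLEC10 most like CASP9 (r = 0.93), SIGLEC6 most like SMC4 (r = 0.93) and SIGLEC7 most like ZNF384 (r = 0.88). SIGLEC9 had the loosest match, GPR141 (r = 0.77). Among the receptors themselves, the highest of the 28 values was that of CD33 with SIGLEC10 (r = 0.81) and the lowest that of SIGLEC6 with SIGLEC9 (r = -0.27).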

How the data were processed

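RNA sequencing of THP1 cells was read from 19 libraries. The labels list 21, and the 2 with a low-quality mark (replicate 1 of wild type, replicate 2 of shRNA control) were not analysed here. Total RNA was taken on columns with DNase digestion and made into messenger RNA libraries (per the labels' protocols). In the submitters' processing notes stand featureCounts, DESeq2 and hg38, without versions. Not given in the sources used here are the aligner, the annotation and the strand setting.

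The authors deposited normalized counts, a signal equal to reads divided by 1 DESeq2 size factor per library. All values (100 percent of 388037) were whole reads after division by that factor, within 0.01. The authors also deposited 3 comparison tables holding a base mean signal, log2 fold changes and their errors, a Wald score, and raw and adjusted p-values. Their log2 fold changes are positive where the knockdown or knockout is higher.

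The main test was limma 3.58.1 (R 4.3.3) on log2(normalized count + 1) for genes whose mean in the fitted libraries reached 10, with empirical Bayes moderation and a trend. The p-values were adjusted over all genes tested, and the fit was tested on simulated data. The knockdown and knockout arms were fitted separately, and together for differences of effects. The alternatives were a pseudocount of 5, no filter, edgeR 4.0.16 and DESeq2 1.42.0 on recovered reads, quantile normalization, a replicate block, all 5 controls, and each replicate left out. A fit without the 3 libraries far from the median was added after seeing the data.

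All 8 members were described. From each further list up to 4 called genes were named by lowest p, or the 2 most abundant where none was called, and the 3 genes most like each member. The members and lists were chosen with earlier results of these data known. Sequences and names came from RefSeq (GRCh38.p14), and gene positions and exon lengths from GENCODE release 29.

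Libraries of 1 group differed by more than sampling noise. Depth was 28.7 to 60.2 M (mega) reads, with 14263 to 19046 genes detected. The floor of 3 reads covers counting error only, and reads are not independent molecules.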

Additional observations from a re-analysis of the deposited data

How the results depend on the processing

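Under the alternatives, the number of receptors called stayed at 0 between the hairpins, between the JDP2 clones, between the JDP2 and ATF7 knockouts, in ATF7 knockout and for the knockdown effect minus the ATF7 knockout effect. For IRF2BP2 knockdown over shRNA control the count of 1 became 4 with DESeq2, 4 with all 5 controls and 3 once the 3 libraries far from the median were dropped, and it ranged from 1 to 2 when each replicate was left out (SIGLEC1 joined without IRF2BP2 shRNA 1 replicate 1, and SIGLEC5 without IRF2BP2 shRNA 1 replicate 3). For JDP2 knockout over the knockout control the count of 0 became 1 with DESeq2 (CD33) and 2 with all 5 controls, and was 0 without each replicate in turn. For ATF7 clone 2 over clone 1 the count of 0 became 1, SIGLEC9, with DESeq2, with quantile normalization, with the replicate block and after dropping the 3 far libraries. It ranged from 0 to 1 when each replicate was left out, being 1 without ATF7 knockout clone 2 replicate 1 and without either replicate of JDP2 knockout clone 1. For the knockdown effect minus the JDP2 knockout effect the count of 0 became 2 with DESeq2 and with the replicate block (CD33 and SIGLEC9), and ranged from 0 to 1 when each replicate was left out, being 1 (SIGLEC9) without ATF7 knockout clone 2 replicate 2. The cause was not tested.

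SIGLEC9 in the knockdown was called in all 16 alternatives, with log2 changes of 3.20 to 9.39 and adjusted p from 1.02e-05 to 0.0492, the last without shRNA control replicate 1. No called gene changed sign under an alternative, and of 1641 further values over 87 gene results, 102 lost and 25 gained a call. LYN kept its knockdown call in 4 of 16 alternatives, CD163 in 7 and CD52 in 8. Scaling with edgeR moved the median of all genes to 0.17 for the knockdown minus JDP2 effects, against 0.03. Whether the replicate numbers pair the libraries was not settled. The correlation of deviations ran from -0.31 to 0.37 over 7 same-numbered pairs of the knockdown arm, exceeding 0.1 in 3. In the knockout arm it ran from -0.53 to 0.57 over 20 such pairs, exceeding 0.1 in 10. Groups of 2 libraries have mirrored deviations, so each knockout value is repeated and the 20 pairs are not separate. Depth limits SIGLEC9, with 0 reads in both shRNA control libraries, and SIGLEC11, with 2 to 7 reads in each control library.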
